A study of Mus musculus with 18 samples.

Results

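The Notch pathway genes followed here were the receptors Notch1, Notch2 and Notch3, the ligands Jag1, Jag2 and Dll1, the target genes Hes1, Hey1 and Heyl, and Rbpj, the DNA-binding factor of the pathway. They were found by symbol in the annotation of the array, among rows that carry 1 gene symbol, and each gene was represented by the row with the highest mean over all arrays. All 10 genes were found, of 22180 genes with such a row. RNA of mouse 3T3-L1 preadipocytes was measured on 18 Affymetrix Mouse Gene ST arrays, 3 in each of 6 groups. The groups were WT and SIRT6 KD cells at 0 hr, before adipogenic induction, and at 20 hr and 40 hr after it. SIRT6, a deacetylase of the sirtuin family, was knocked down (KD) by a lentiviral shRNA, and both genotypes were induced with IBMX, dexamethasone and insulin. The study used a control shRNA in other assays, and whether the WT cells of the arrays carried it is not given in the sources used here. The sample labels give WT or SIRT6KD, the time and whether a sample was treated, but they describe mice given an inhibitor, with times that have no unit. The cell line, the shRNA and the hours are therefore taken from the study's text. The methods state that cell culture work in general used biological replicates, while the labels do not say that the arrays of a group came from separate cultures. If they did not, each p-value measures only the spread between these arrays, which may be technical.

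In Notch signaling, a Jagged or Delta-like ligand on 1 cell binds a Notch receptor on its neighbor. The receptor is then cut by an ADAM protease and by gamma-secretase, and its freed intracellular part joins RBPJ and a Mastermind coactivator in the nucleus, where genes of the Hes and Hey families of repressors are switched on. Without the receptor fragment, RBPJ recruits corepressors. The pathway is known in preadipocytes as a regulator of whether and when cells differentiate.

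The promoter sequences of the 2 members that were lower at 20 hr and higher again at 40 hr, Jag1 and Notch1, and of the receptor Notch2, which passed the test at no time, are shown for comparison. Each runs from 250 bases before to 50 bases after a RefSeq transcription start in GRCm38.p6, 5′ to 3′ on the strand of the gene, with GC boxes (GGGCGG on either strand) in capitals. The windows are chr2:137116471-137116770 on the minus strand for Jag1, chr2:26503773-26504072 on the minus strand for Notch1 and chr3:98013288-98013587 on the plus strand for Notch2.
Jag1: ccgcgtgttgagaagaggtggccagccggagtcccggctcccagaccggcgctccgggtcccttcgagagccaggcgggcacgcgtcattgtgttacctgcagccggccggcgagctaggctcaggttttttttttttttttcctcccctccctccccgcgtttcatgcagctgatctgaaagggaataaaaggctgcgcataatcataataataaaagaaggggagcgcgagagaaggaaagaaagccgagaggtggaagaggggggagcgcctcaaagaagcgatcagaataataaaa
Notch1: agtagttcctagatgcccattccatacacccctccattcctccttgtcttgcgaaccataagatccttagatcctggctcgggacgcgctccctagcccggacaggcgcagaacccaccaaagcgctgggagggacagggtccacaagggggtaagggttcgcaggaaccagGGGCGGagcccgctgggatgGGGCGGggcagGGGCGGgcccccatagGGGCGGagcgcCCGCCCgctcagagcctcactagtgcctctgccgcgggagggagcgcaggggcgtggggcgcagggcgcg
Notch2: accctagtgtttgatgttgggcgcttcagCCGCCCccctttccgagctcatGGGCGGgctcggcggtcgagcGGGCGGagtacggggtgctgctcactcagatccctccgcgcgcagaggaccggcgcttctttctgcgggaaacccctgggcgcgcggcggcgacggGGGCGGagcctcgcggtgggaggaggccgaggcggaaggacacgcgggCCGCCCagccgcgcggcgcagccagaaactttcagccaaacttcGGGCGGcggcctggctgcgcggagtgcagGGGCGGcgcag

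The Jag1 window held none of the motifs searched and had a GC content of 55.7%, against a median of 52.7% over the 32851 promoters of the table. The Notch1 window had a GC content of 68.3% and 5 GC boxes, and the Notch2 window had 73.0% and 7 GC boxes. At least 1 GC box was present in 35.7% of all promoters. The other motifs were the RBPJ site GTGGGAA, found in 6.38% of all promoters, the cAMP response element TGACGTCA in 1.79%, the palindromic glucocorticoid response element in 0.00913%, the C/EBP site TTGCGCAA in 0.183% and the AP-1 site TGANTCA in 7.81%. All motifs were searched on both strands, and a match counts letters only. Promoter windows were available for 7 members, and the RBPJ, cAMP, glucocorticoid and C/EBP letters were in none of them. GC boxes were also in the windows of Notch3 (4), Jag2 (5) and 1 of the windows of Rbpj (1), and an AP-1 match was in 1 of the windows of Dll1. No promoter window was available for Hes1, Hey1 and Heyl, so they were not searched for any motif.

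Sirt6, the target of the shRNA, was read first. Its log2 signal at 0 hr was 7.17, 7.41 and 7.15 in WT and 6.96, 7.21 and 7.03 in SIRT6 KD, at 20 hr it was 6.96, 7.34 and 7.28 against 6.73, 6.98 and 6.97, and at 40 hr it was 7.18, 7.08 and 7.13 against 7.07, 6.80 and 6.86. The mean was lower in SIRT6 KD at each time, and the arrays of the genotypes did not overlap at 40 hr only. Averaged over the times the difference was −0.23 (SE 0.0638, 95% interval −0.37 to −0.10, 1.17-fold). Its p by limma was 0.00183 before adjustment, where 11.4% of all rows were under 0.05, and 0.136 after adjustment over all rows. The lower Sirt6 RNA thus did not pass the adjusted test. The study probed SIRT6 protein in knockdown 3T3-L1 cells by western blot, which these arrays do not measure. It also measured Sirt6 RNA by real-time PCR in 3T3-L1 cells, in its experiment that combined knockdown of SIRT6 and KIF5C. Arrays of 1 group correlated at 0.99 to 0.995, and 5 arrays (WT 0 hr replicate 3, all 3 arrays of SIRT6 KD 20 hr and SIRT6 KD 40 hr replicate 1) were closer on average to the opposite genotype of that time than to their fellow replicates. Of the preadipocyte and fibroblast markers, 7 of 8 were above a background level of 6.54 (the 95th percentile of 1407 rows for olfactory and vomeronasal receptors, genes not expected in these cells), with group means of the list from 10.01 to 10.47, while none of 6 endothelial markers was (5.69 to 5.81), 1 of 5 macrophage and leukocyte markers was (6.11 to 6.15) and 1 of 4 epithelial markers was (6.08 to 6.25). Of 5 mural markers 3 were above it, with group means from 6.48 to 6.66.

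Of all rows tested, 53.5% had a mean above this background level. Notch1, Notch2, Notch3, Jag1, Hes1, Hey1 and Rbpj were above this level on all 18 arrays. Jag2 (mean 6.37) was above it on 2 arrays, Heyl (6.43) on 2 and Dll1 (6.30) on 0, so their values below are those of dim probes. All values are log2 signals, which compare a gene between arrays but not 1 gene with another, and a change is a difference of log2 group means.

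The first comparison asks how the pathway genes moved after induction. Jag1 fell about 2-fold by 20 hr in both genotypes and rose again by 40 hr, when it was still lower than at 0 hr by the test in SIRT6 KD (−0.43). Notch1 moved the same way over a smaller range, the row for Rbpj was lower at both later times, and Hes1 was lower at both later times in SIRT6 KD. None of the 10 members was higher at 20 hr or 40 hr than at 0 hr by the test. Of all rows, 14.1% and 12.2% were higher in WT and 13.2% and 10.7% in SIRT6 KD. With 10 genes, 0 is not far from these shares. A gene is said to have risen or fallen where its Benjamini-Hochberg adjusted p over all 23521 rows was under 0.05 in limma.

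In WT cells, 3 of 10 members fell at 20 hr against 0 hr, in a comparison in which 25.8% of all rows were called and 11.7% were called lower. At 40 hr 1 of 10, the row for Rbpj, was lower than at 0 hr (22.8% of all rows called, 10.6% lower). From 20 hr to 40 hr 2 of 10 rose (9% called, 3.75% higher). In SIRT6 KD cells, 4 of 10 fell at 20 hr (25.4% called, 12.2% lower), 3 of 10 were lower at 40 hr than at 0 hr (23.3% called, 12.5% lower), and from 20 hr to 40 hr 2 rose and 1 fell (10.3% called, 3.73% higher and 6.55% lower). The median change of the members at 20 hr was −0.15 in WT and −0.08 in SIRT6 KD, against 0.00 and 0.03 over all rows. At 40 hr against 0 hr it was −0.07 in WT and −0.05 in SIRT6 KD, against 0.00 and 0.04. Arrays of the compared times did not overlap for 4 of 10 members in WT at 20 hr (Notch1, Jag1, Hes1 and Rbpj, 38.2% of all rows) and for 4 at 40 hr against 0 hr (34.5%), and for 3 from 20 hr to 40 hr (26%). In SIRT6 KD they did not for 4 (36.1%), 3 (37.6%) and 4 (22.6%). With 10 genes these shares are coarse, and both later times are set against the same 0 hr arrays. The row for Rbpj, whose gene is uncertain as described below, is in every count of falls. The balance of called rows depends on the scaling: 3323 rows were higher and 2755 lower at 20 hr in WT as deposited, and 4511 and 1895 after median centring of each array.

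**Figure D1:**
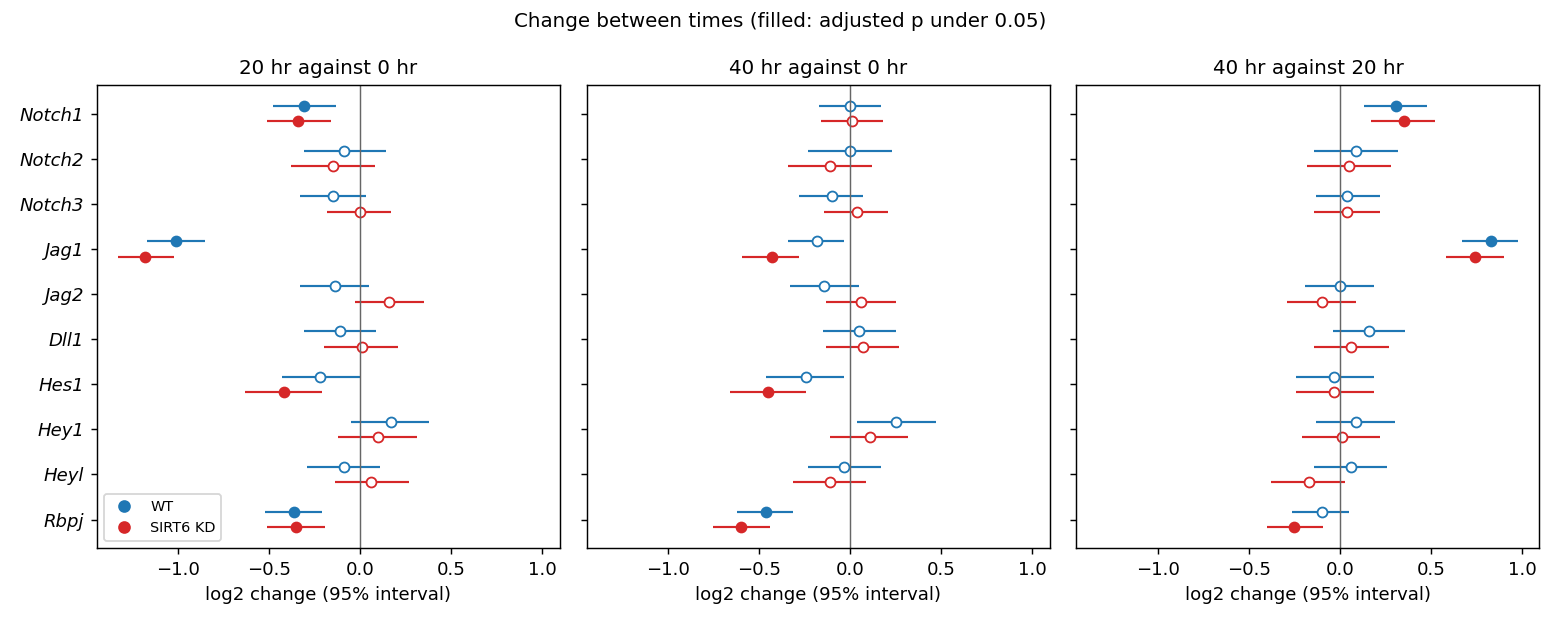
Log2 change with its 95% interval (x axis) of each Notch pathway gene (y axis) between times, in WT (blue) and SIRT6 KD (red), with filled points at an adjusted p under 0.05. Jag1 lies at −1.01 and −1.18 at 20 hr and at 0.83 and 0.74 from 20 hr to 40 hr, and the intervals of WT and SIRT6 KD overlap for every gene.

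The receptors are single-pass proteins cut in the membrane once a ligand binds. Notch1 (chr2:26457902-26503822, GRCm38.p6) read 8.06, 8.26 and 8.24 in WT at 0 hr, 7.86, 7.81 and 7.97 at 20 hr and 8.22, 8.19 and 8.16 at 40 hr. All 3 arrays at 20 hr were below all 6 of the other times. The fall to 20 hr was −0.31 (SE 0.0826, 1.24-fold, adjusted p = 0.00847) and the rise from 20 hr to 40 hr was 0.31 (adjusted p = 0.0223), so that 40 hr differed from 0 hr by 0.00, with a 95% interval of −0.17 to 0.17. In SIRT6 KD cells Notch1 read 8.06, 8.21 and 8.20 at 0 hr, 7.78, 7.94 and 7.75 at 20 hr and 8.27, 8.15 and 8.07 at 40 hr. The arrays at 20 hr were again below all others. The changes were −0.34 (adjusted p = 0.00449) and 0.35 (adjusted p = 0.00867), and 40 hr differed from 0 hr by 0.01, with an interval of −0.16 to 0.18. These falls and rises share the 20 hr arrays within a genotype, while the arrays of the genotypes are separate. The smaller steps were open to the setting: after median centring the WT fall was −0.22 (adjusted p = 0.0834), and the WT rise did not pass the test once WT 20 hr replicate 1, WT 20 hr replicate 2 or any single array of WT 40 hr was left out (adjusted p up to 0.107).

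Notch2 (chr3:98013538-98150367), a receptor closely related to Notch1, ranged from 8.86 to 9.31 over the 18 arrays. Its group means lay between 9.08 and 9.24, and none of its changes passed the test. Its change at 20 hr was −0.09 in WT (95% interval −0.31 to 0.14) and −0.15 in SIRT6 KD (−0.38 to 0.08). Notch3 (chr17:32120820-32166896), best known from the smooth muscle of vessels, ranged from 6.84 to 7.22. Its change at 20 hr was −0.15 in WT (interval −0.33 to 0.03, adjusted p = 0.246) and 0.00 in SIRT6 KD (−0.18 to 0.17), and its groups overlapped at every pair of times.

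Of the ligands, Jag1 (chr2:137081451-137116520), a Jagged ligand bound to the membrane, had the largest changes of the members. In WT cells it read 9.94, 10.08 and 9.99 at 0 hr, 8.96, 9.01 and 9 at 20 hr and 9.68, 9.87 and 9.90 at 40 hr. The arrays at 20 hr lay far below all others, and those at 40 hr just below those at 0 hr without overlap. The fall to 20 hr was −1.01 (SE 0.0755, 2.02-fold, adjusted p = 5.07e-09), and the rise from 20 hr to 40 hr was 0.83 (1.77-fold, adjusted p = 1.9e-07). At 40 hr Jag1 was −0.18 from 0 hr (interval −0.34 to −0.03), which did not pass the test (adjusted p = 0.0928).

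In SIRT6 KD cells Jag1 read 9.89, 10.01 and 9.96 at 0 hr, 8.70, 8.83 and 8.80 at 20 hr and 9.58, 9.46 and 9.52 at 40 hr. The same order of times held, with no overlap between any of the 3 groups. The fall to 20 hr was −1.18 (2.26-fold, adjusted p = 6.88e-10), the rise from 20 hr to 40 hr was 0.74 (1.67-fold, adjusted p = 7.16e-07), and at 40 hr Jag1 remained 0.43 below 0 hr, a change of −0.43 (1.35-fold, adjusted p = 0.000225). The 40 hr value thus passed the test against 0 hr in SIRT6 KD and not in WT, but the difference between those changes was −0.25 (interval −0.47 to −0.03), with an adjusted p of 0.475. With a fold above 1.5 required beside the adjusted p, Jag1 was the 1 member called at 20 hr in WT (8.95% of all rows) and in SIRT6 KD (8.48%), and from 20 hr to 40 hr (3.16% and 3.41%). At 40 hr against 0 hr that rule called 0 members in WT (7.73%) and the row for Rbpj alone in SIRT6 KD (7.35%).

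Jag2 (chr12:112907803-112929812), the other Jagged ligand, read 6.26 to 6.64 over the arrays, and Dll1 (chr17:15367354-15376932), a Delta-like ligand, read 6.12 to 6.47. Neither changed between times by the test, with the largest difference at 0.16 for both (Jag2 at 20 hr in SIRT6 KD, interval −0.03 to 0.35, and Dll1 from 20 hr to 40 hr in WT, −0.04 to 0.36). Both lie at the background level, where a change of a dim probe set is compressed. Dll1 has a second, dimmer row (mean 5.41), whose changes at 20 hr and 40 hr were −0.23 and −0.26 in WT and 0.10 and 0.29 in SIRT6 KD, none of which passed the test (lowest adjusted p = 0.0858).

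The targets Hes1, Hey1 and Heyl encode basic helix-loop-helix repressors. Hes1 (chr16:30065357-30067796) read 7.46, 7.42 and 7.39 in WT at 0 hr, 7.06, 7.30 and 7.26 at 20 hr and 7.04, 7.27 and 7.23 at 40 hr. In SIRT6 KD it read 7.46, 7.45 and 7.50 at 0 hr, 7.09, 7.01 and 7.04 at 20 hr and 6.78, 7.01 and 7.27 at 40 hr. In both genotypes every later array was below every 0 hr array, and the SIRT6 KD arrays at 40 hr spread most widely (SD 0.246, n = 3). In SIRT6 KD Hes1 fell by 0.42 at 20 hr (SE 0.102, 1.34-fold, adjusted p = 0.0041) and was lower by 0.45 at 40 hr, a change of −0.45 (adjusted p = 0.00275). In WT the changes were −0.22 (adjusted p = 0.143) and −0.24 (adjusted p = 0.104). Between the genotypes, the change from 0 hr differed by −0.20 at 20 hr (interval −0.51 to 0.10, adjusted p = 0.939). At 40 hr that change differed by −0.21 (−0.51 to 0.10, adjusted p = 0.659), so the falls were not shown to differ.

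Hey1 (chr3:8663359-8667038) read 8.04, 8.02 and 7.79 in WT at 0 hr, 8.03, 8.23 and 8.09 at 20 hr and 8.29, 8.09 and 8.24 at 40 hr. The 40 hr arrays were all above the 0 hr arrays, with a difference of 0.25 (interval 0.04 to 0.47) that did not pass the test (adjusted p = 0.0874). In SIRT6 KD it was 0.11 at 40 hr (−0.11 to 0.32). Its mean was thus above that at 0 hr where that of Hes1 was below, without a call for Hey1 in this fit. The WT difference of Hey1 at 40 hr was called after median centring (adjusted p = 0.0491) and among rows above the background level (adjusted p = 0.0447). Heyl (chr4:123233556-123249870) read 6.15 to 6.56 and differed from 0 hr by between −0.11 and 0.06, with no call.

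Rbpj turns the signal into transcription. The row with the highest mean read 9.73, 9.87 and 9.91 in WT at 0 hr, 9.44, 9.50 and 9.49 at 20 hr and 9.40, 9.40 and 9.33 at 40 hr. In SIRT6 KD it read 9.79, 9.82 and 9.86, then 9.41, 9.55 and 9.45, then 9.34, 9.14 and 9.20. The 3 times did not overlap in either genotype. The row fell by 0.36 at 20 hr (SE 0.0741, 1.29-fold, adjusted p = 0.000891) and by 0.46 at 40 hr (adjusted p = 8.56e-05) in WT, and by 0.35 (adjusted p = 0.00132) and 0.60 (1.51-fold, adjusted p = 5.04e-06) in SIRT6 KD. From 20 hr to 40 hr it fell by a further 0.25 in SIRT6 KD (adjusted p = 0.0402) and differed by −0.10 in WT (adjusted p = 0.558). That late SIRT6 KD fall did not pass the test in 10 of the fits that left out 1 array, where its adjusted p reached 0.171.

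The gene that this row measures is uncertain. Rbpj lies on chromosome 5 (chr5:53555779-53657445), but the 20 rows next to this one in the order of row numbers with a known place are all on chromosome 6, between Nobox and Ezh2, where RefSeq places the pseudogene Rbpj-ps3 (chr6:46529151-46530884). The rows of the other 9 members, and a second Rbpj row, sit among neighbors from their own chromosome. Signal from a near-identical copy and from its parent gene cannot be told apart by probes common to both. The second row, with neighbors on chromosome 5, read between 6.27 and 7.16 and was noisier. Its changes were −0.11 at 20 hr and −0.28 at 40 hr in WT, and 0.12 and −0.15 in SIRT6 KD (SE 0.161, adjusted p from 0.266 to 0.711), so it had no call. Its WT intervals (−0.45 to 0.23 at 20 hr and −0.62 to 0.06 at 40 hr) hold the falls of the brighter row, while its SIRT6 KD intervals (−0.22 to 0.45 and −0.49 to 0.18) do not. With the mean of both rows the falls at 20 hr did not pass the test (adjusted p = 0.0999 in WT and 0.465 in SIRT6 KD), while those at 40 hr did.

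**Figure D2:**
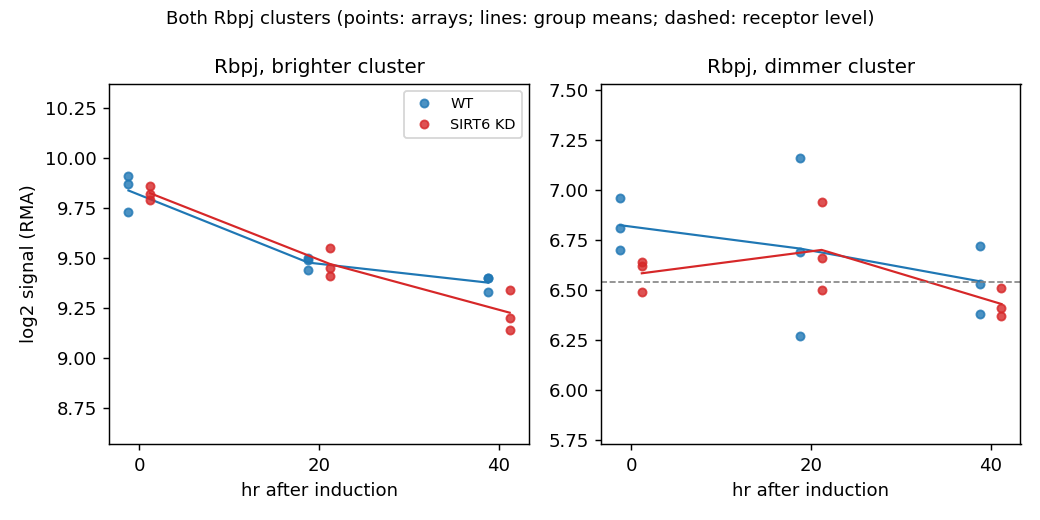
Log2 signal (y axis, 1.8 log2 units in each panel) of the brighter and the dimmer Rbpj row against hr after induction, with 1 point per array for WT (blue) and SIRT6 KD (red), lines through the means of 3 arrays and the background level of 6.54 dashed. The brighter row steps down at each time, while the dimmer row spreads from 6.27 to 7.16 at WT 20 hr alone.

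The second comparison asks what SIRT6 KD did to these genes. None of the 10 members differed between SIRT6 KD and WT by limma's test at 0 hr, 20 hr or 40 hr, where 0%, 0.0213% and 0.0935% of all rows did, or averaged over the times (0.378% of all rows). At an unadjusted p under 0.05 in limma, 0 members differed at 0 hr (6.91% of all rows did), and 1 (Jag1) at 20 hr (6.65%), at 40 hr (11%) and averaged over the times (11.4%). The difference between genotypes in the change from 0 hr to 20 hr, from 0 hr to 40 hr or from 20 hr to 40 hr was called for 0 of 10 members and 0% of all rows, and at an unadjusted p under 0.05 for 1 (Jag2, 5.02% of all rows), 1 (Jag1, 9.37%) and 0 members (4.44%).

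Jag1 was the member nearest to a call. SIRT6 KD was lower than WT by 0.05 at 0 hr, a difference of −0.05 (interval −0.21 to 0.11), and the arrays overlapped. At 20 hr and 40 hr every SIRT6 KD array was below every WT array, with differences of −0.21 (interval −0.37 to −0.05) and −0.30 (1.23-fold, −0.46 to −0.14). Adjusted over all rows the p-values were 0.575 and 0.141, and for the mean over the times the difference was −0.19 (SE 0.0436, adjusted p = 0.0798). The adjusted p at 40 hr ranged from 0.0481, with a trended prior variance and robust estimation together, to 0.356 over the other fits, and that of the mean from 0.0224 to 0.139.

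Arrays of the genotypes that did not overlap were found for Jag2 at 0 hr (6.34, 6.64 and 6.44 in WT against 6.32, 6.29 and 6.26), Jag1 at 20 hr, and Jag1 and Heyl at 40 hr, with SIRT6 KD below WT each time. Over all rows, 12.3%, 11.7% and 15.9% did not overlap at 0 hr, 20 hr and 40 hr. Heyl at 40 hr read 6.51, 6.44 and 6.45 in WT against 6.44, 6.33 and 6.15 in SIRT6 KD, all below the background level, and the nearest arrays of the genotypes were equal at this rounding. An exact two-sided permutation test gave p = 0.1 for each, and no smaller p can be reached with 3 arrays in each group.

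The differences of the remaining members were small against their intervals. At 40 hr the difference was −0.02 for Notch1 (−0.19 to 0.15), −0.05 for Notch2 (−0.28 to 0.18) and −0.03 for Notch3 (−0.21 to 0.14). It was −0.16 for Hes1 (−0.38 to 0.05), −0.12 for Hey1 (−0.33 to 0.10), −0.16 for Heyl (−0.37 to 0.04) and −0.15 for the brighter Rbpj row (−0.31 to 0.00). For the dim ligands it was 0.02 for Jag2 (−0.17 to 0.21) and −0.12 for Dll1 (−0.32 to 0.08). None of these intervals lay wholly on 1 side of 0. The second, dimmer Dll1 row, which is not in the counts of members, went another way. It differed by −0.31 at 0 hr (−0.56 to −0.06, adjusted p = 0.672) and by 0.24 at 40 hr (−0.01 to 0.49). Its change from 0 hr to 40 hr differed between the genotypes by 0.55 (0.20 to 0.90). In limma the p of that difference was 0.0039 before adjustment and 0.394 after it. Averaged over the times, all 10 members lay at or below 0, with a median of −0.06, against −0.01 over all rows, of which 54.1% were below 0.

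**Figure D3:**
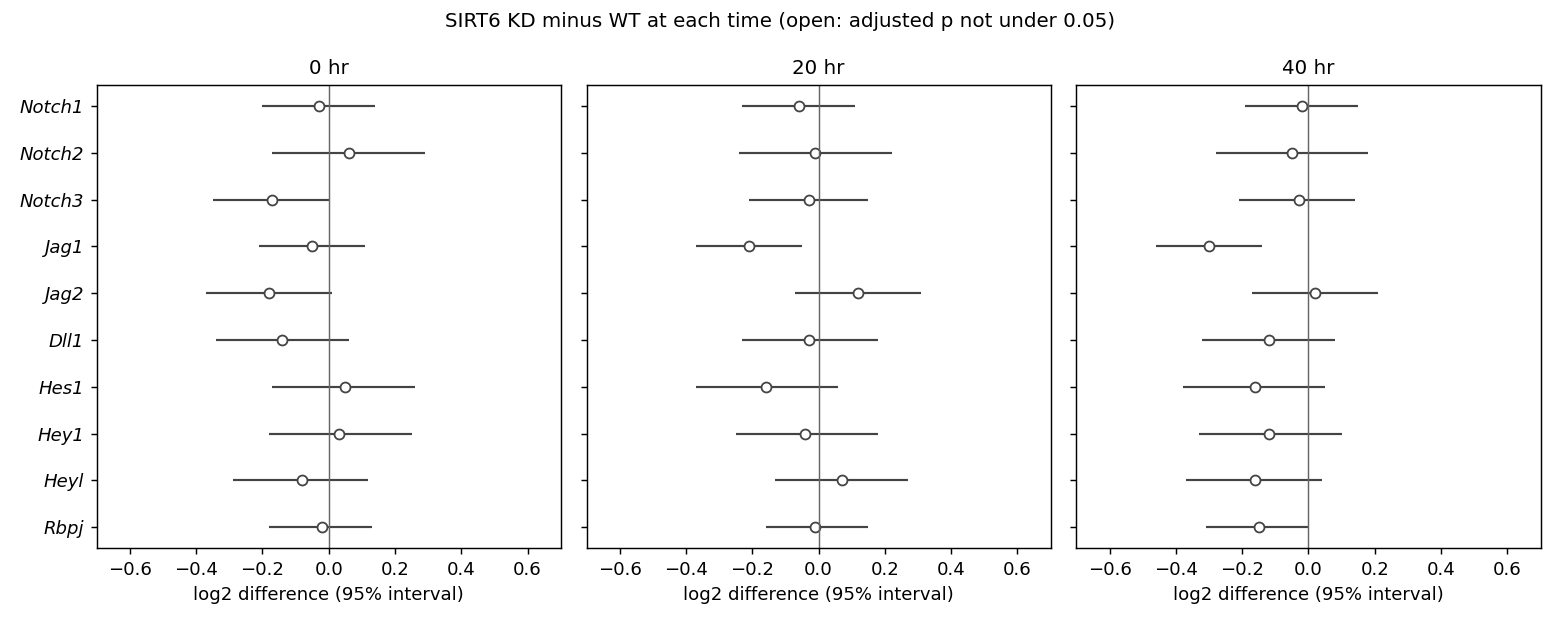
Log2 difference of SIRT6 KD minus WT with its 95% interval (x axis) for each Notch pathway gene (y axis) at 0 hr, 20 hr and 40 hr, with all points open because no adjusted p was under 0.05. Jag1 is at −0.21 at 20 hr and −0.30 at 40 hr, where its intervals do not reach 0.

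Of 63 further genes of the pathway listed, 59 were analysed here and 50 had a mean above the background level. In WT, 10 rose and 4 fell at 20 hr (23.7%, against 25.8% of all rows), and 11 rose and 3 fell at 40 hr (23.7%, against 22.8%). In SIRT6 KD, 9 rose and 6 fell at 20 hr (25.4%, against 25.4%), and 11 rose and 4 fell at 40 hr (25.4%, against 23.3%). These shares are close to those of all rows. Between some pair of times within a genotype, 21 of the 59 passed the test, as did 41.3% of all rows. By role these were 10 of 21 nuclear cofactors, 5 of 9 proteases and protease subunits, 3 of 11 genes of ubiquitination and trafficking, 2 of 5 glycosylation genes, 1 of 5 ligands, 0 of 7 targets (3 of them above the background level) and 0 of 1 receptor. None of the 59 differed between the genotypes.

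Among the 21 nuclear cofactors, 6 rose and 2 fell at 20 hr in WT (38.1%, against 25.8% of all rows). Maml2, a Mastermind coactivator that binds the complex of receptor fragment and RBPJ, fell most, from 9.65 ± 0.189 (SD, n = 3) at 0 hr to 8.75 ± 0.1 at 20 hr and 8.50 ± 0.0876 at 40 hr in WT. Its changes were −0.91 and −1.15 in WT and −0.95 and −1.14 in SIRT6 KD (adjusted p from 1.44e-08 to 3.33e-07). Maml3, of the same family, was −0.36 at 40 hr in WT (adjusted p = 0.0302) and −0.27 in SIRT6 KD (adjusted p = 0.113).

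The Groucho-type corepressors, which act with Hes proteins, did not move as 1 group. Tle1 rose by 0.67 and 0.93 in WT and by 0.47 and 0.64 in SIRT6 KD at 20 hr and 40 hr, and Tle4 rose by 0.36 and 0.62 and by 0.29 and 0.53. Tle2 fell at 20 hr, by 0.44 in WT and 0.46 in SIRT6 KD, and at 40 hr differed from 0 hr by −0.21 and −0.22 without a call. The acetyltransferase Kat2a rose by 0.55 and 0.50 in WT and by 0.53 and 0.45 in SIRT6 KD. Kat2b, its close relative, was higher at 40 hr, by 0.68 in WT and 0.43 in SIRT6 KD, and at 20 hr stood at −0.17 in WT (adjusted p = 0.241) and had fallen by 0.39 in SIRT6 KD (adjusted p = 0.00437). Fbxw7, the ubiquitin ligase component that marks the receptor fragment for degradation, rose by 0.51 and 0.57 in WT and by 0.37 and 0.54 in SIRT6 KD.

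Of the 9 genes that cut or mature the receptors, 3 rose and 0 fell at 20 hr in WT (33.3%, against 25.8% of all rows), and 4 rose and 0 fell at 40 hr (44.4%, against 22.8%). In SIRT6 KD 2 rose and 1 fell at 20 hr (33.3%, against 25.4%), and 3 rose and 1 fell at 40 hr (44.4%, against 23.3%). Furin, which cleaves the receptor precursor, rose by 0.65 and 0.68 in WT and by 0.48 and 0.44 in SIRT6 KD. Adam10, the main sheddase of ligand-bound receptors, rose by 0.22 and 0.40 in WT and differed by 0.04 and 0.19 in SIRT6 KD (adjusted p = 0.766 and 0.0506). Adam17, a related sheddase, rose by 0.42 and 0.33 in WT and by 0.32 and 0.27 in SIRT6 KD. Psen2, a catalytic subunit of gamma-secretase, went from 7.03 ± 0.151 (SD, n = 3) at 0 hr to 7.85 ± 0.0829 at 40 hr in WT, a rise of 0.81, and rose by 0.68 in SIRT6 KD, with no call at 20 hr in either. Aph1c, another gamma-secretase subunit, fell in SIRT6 KD by 0.52 and 0.51 and differed by −0.03 and −0.09 in WT. The differences between genotypes in these changes from 0 hr, −0.48 at 20 hr and −0.43 at 40 hr, were not called (adjusted p = 0.801 and 0.394). Its mean was 7.79 in SIRT6 KD and 7.44 in WT at 0 hr, then 7.28 and 7.41 at 20 hr and 7.28 and 7.35 at 40 hr. The genotypes thus stood furthest apart before induction. Aph1c was named after its values were seen.

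In the remaining roles few genes moved. Poglut1, which adds glucose to the receptors, rose by 0.40 and 0.48 in WT and by 0.27 and 0.31 in SIRT6 KD, and the other 4 glycosylation genes had no call in WT. In SIRT6 KD Rfng, a fringe glycosyltransferase, rose by 0.30 and 0.33 (adjusted p = 0.0277 and 0.0151), with 0.11 and 0.18 in WT (adjusted p = 0.505 and 0.218). Of 11 genes of ubiquitination and trafficking, Dtx4 fell by 0.35 and Mib2, a ligase for the ligands, fell by 0.31 at 20 hr in WT (adjusted p = 0.00653 and 0.0215), and neither was called at 40 hr. In SIRT6 KD at 20 hr Dtx4 fell by 0.26 (adjusted p = 0.0374) and Mib2 was at −0.03 (adjusted p = 0.889). Itch, a ubiquitin ligase, fell in SIRT6 KD by 0.26 at 20 hr and by 0.29 at 40 hr (adjusted p = 0.017 and 0.00869) and was at −0.09 and −0.07 in WT. Its mean was 9.65 in SIRT6 KD and 9.48 in WT at 0 hr, then 9.39 and 9.40 at 20 hr and 9.36 and 9.41 at 40 hr. Rfng and Itch were named after their values were seen, and for none of these genes was the difference between genotypes called. Dlk1, a Delta-like protein that marks preadipocytes, was −0.08 at 20 hr and fell by 0.30 at 40 hr in WT (adjusted p = 0.0399), and was −0.06 at 20 hr and fell by 0.43 at 40 hr in SIRT6 KD (adjusted p = 0.00434). Notch4 (mean 7.15), Dll4 (6.02) and the target Hey2 (5.64), genes used by endothelial cells, had no call, and Dll4 and Hey2 lay below the background level.

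**Figure D4:**
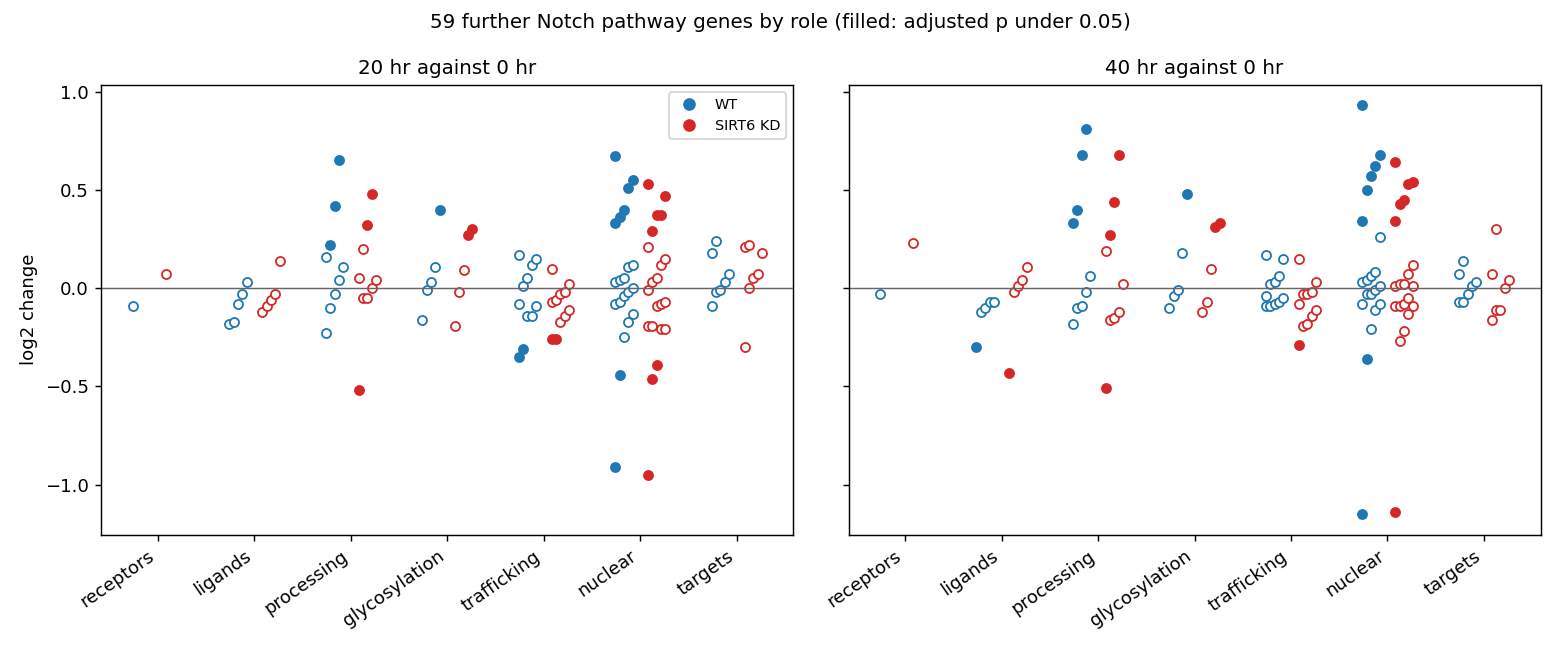
Log2 change (y axis) at 20 hr and at 40 hr against 0 hr of 59 further Notch pathway genes by role (x axis), with 1 point per gene for WT (blue) and SIRT6 KD (red) and filled points at an adjusted p under 0.05. Maml2 lies lowest, near −0.91 at 20 hr and −1.15 at 40 hr, and Tle1 highest, at 0.67 and 0.93 in WT, both among the nuclear cofactors.

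Markers of the adipocyte moved over the same hours. Of 8 listed, 7 were above the background level (Lep was below it), and the mean of the list in WT was 8.27 at 0 hr, 8.23 at 20 hr and 9.03 at 40 hr, against 8.26, 8.09 and 8.93 in SIRT6 KD. The mean of the preadipocyte and fibroblast list was 10.47, 10.01 and 10.05 in WT and 10.45, 10.06 and 10.03 in SIRT6 KD. Dlk1 is also 1 of that list, whose members did not move as 1 group. At 20 hr in WT Pdgfrb, Col1a1, Col1a2, Thy1 and Cd34 fell (−1.62 to −0.32), while Pdgfra, Fn1 and Dlk1 had no call. The mean of Cd34 was below the background level. In SIRT6 KD at 20 hr Pdgfrb, Col1a1 and Col1a2 fell (−1.50 to −0.33). Thy1 (−0.15, adjusted p = 0.326) and Cd34 (−0.17, adjusted p = 0.122) had no call there, nor had Pdgfra, Fn1 or Dlk1. At 40 hr Pdgfra was higher than at 0 hr, by 0.49 in WT and 0.35 in SIRT6 KD. Among the adipocyte markers at 20 hr in WT, Cd36 and Fabp4 rose (0.36 and 0.27) and Lpl fell (−0.44). In SIRT6 KD at 20 hr Lpl fell (−0.69), and Cd36 (−0.13) and Fabp4 (−0.04) had no call. The difference between genotypes in the change at 20 hr was called for none of these markers. The part of these changes in marker level in the members' changes was not tested, and in RNA of whole cultures fewer cells of a type and less RNA per cell cannot be told apart. Without WT 0 hr replicate 3 and SIRT6 KD 40 hr replicate 1, a choice made after seeing the data, the number of members called was the same in 12 of 13 comparisons, and from 20 hr to 40 hr in SIRT6 KD it was 2 in place of 3, with Notch1 at 0.29 (adjusted p = 0.0533).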

How the data were processed

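RNA of 18 samples, 3 in each of 6 groups, was measured on Affymetrix Mouse Gene ST arrays, 1 array a sample. The log2 values were deposited by the authors after RMA (named without a version in the submitters' processing notes), with 1 value for each of 41345 transcript clusters (called rows here) and no replicates pooled. RMA scales the probe values of all arrays to 1 distribution before it summarises them, so a shift shared by most genes is largely not seen. The medians of the deposited values still differed between arrays, from 6.41 to 6.54. The genome build behind the array annotation is not given in the sources used here. The number of arrays limits the precision.

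Rows with 1 gene symbol (23521) were fitted in R 4.3.3 with limma 3.58.1 (lmFit, contrasts.fit, eBayes) over the 6 groups, with 12 residual and 6.37 prior degrees of freedom and no filter on signal. All groups were fitted together because the study's methods give a one-way design for every dataset. P-values are two-sided and were adjusted by Benjamini and Hochberg over all rows in each of 13 comparisons, with 0.05 as the threshold. Intervals are 95% intervals of the same fit. Rows with no symbol (16004) or several (1820) were left out of the tests. The script was tested on simulated data.

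The 10 members, the further pathway genes and the marker lists were chosen with earlier results of these data known. Further genes are named where, by role and direction, they had up to 3 of the largest changes among those called in WT, and Dlk1, Notch4, Dll4 and Hey2 in any case. Gene positions and promoters are from RefSeq, GRCm38.p6, and no protein sequences were used. The alternatives were an unmoderated test, a trended prior with robust estimation, the replicate block, a filter at the background level and all 41345 rows. Others were median centring, cyclic loess, the compared groups alone, a fold above 1.5, the mean of a gene's rows and leaving out each array. A further alternative, chosen after seeing the data, left out 2 of the 5 arrays that stood closer to the opposite genotype. These were WT 0 hr replicate 3 and SIRT6 KD 40 hr replicate 1. The rest of the 5, the whole SIRT6 KD 20 hr group, were kept in it. All values come from columns of the samples described.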

Additional observations from a re-analysis of the deposited data

How the results depend on the processing

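Of the 16 member changes called, checked 176 times under the other fits, 155 kept their call, 21 lost it and 0 reversed. Without 1 array, 273 of 288 checks kept the call and 15 lost it. Of 1205 checks on values that were not called, 9 gained a call, and without 1 array 1 of 2052 did. A fold above 1.5 as an added requirement left 1 member (Jag1) at 20 hr in WT and 1 in SIRT6 KD, 0 and 1 (Rbpj) at 40 hr against 0 hr, and 1 and 1 (Jag1) from 20 hr to 40 hr. The number called in WT at 40 hr against 0 hr was 2 with the unmoderated test, 3 above the background level, 2 after median centring and 2 after cyclic loess, against 1, from Jag1 (adjusted p 0.0166 to 0.0428) and Hey1 (0.0447 and 0.0491). From 20 hr to 40 hr in WT it was 1 after median centring, and in SIRT6 KD it was 1 with the compared groups alone (Notch1 adjusted p = 0.0746, Rbpj 0.215). SIRT6 KD against WT gave 1 (Jag1) at 40 hr with a trended prior and robust estimation together, and 1 (Jag1) averaged over the times with the unmoderated test, with that same pair of choices and above the background level. Members whose arrays did not overlap between genotypes numbered 3 at 0 hr with the mean of a gene's rows, against 1, and 1 at 40 hr after median centring or cyclic loess, against 2. Of all rows, 2871 were higher and 2503 lower in WT at 40 hr against 0 hr as deposited. After median centring these were 3318 and 2007, and after cyclic loess 2721 and 2691. Apart from values given for the scalings and the added fold, shares of all rows under these settings are not given here. The changes in count are thus not set against all rows.

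Without 1 array the counts in WT were 3 to 3 at 20 hr, 1 to 2 at 40 hr (2 without SIRT6 KD 40 hr replicate 2, through Hey1) and 1 to 2 from 20 hr to 40 hr (1 without WT 20 hr replicate 1 or 2 or any WT 40 hr array), those in SIRT6 KD were 4 to 4, 3 to 3 and 2 to 3, and those between genotypes were 0 to 0. The replicate numbers did not pair the arrays (same-numbered arrays of different groups correlated from −0.225 to 0.179 in their deviations, median −0.0164, with 6 of 45 pairs over 0.1, and 4 of 18 arrays correlated best with their own number). With the replicate block the counts were unchanged except for 2 in place of 3 from 20 hr to 40 hr in SIRT6 KD (Rbpj adjusted p = 0.0619). Median centring shifted the changes at 20 hr by 0.09 in WT and 0.05 in SIRT6 KD, and turned the called rows at 20 hr in SIRT6 KD from 3094 higher and 2874 lower to 3975 and 2300, and those from 20 hr to 40 hr from 883 and 1234 to 626 and 1367 in WT and from 878 and 1540 to 582 and 1823 in SIRT6 KD. The causes of these differences were not tested. Jag2, Dll1 and Heyl, near the background level of 6.54, are limited by their signal.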
